A study of Mus musculus with 38 samples.

Results

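The values described here are reads of input DNA, the sonicated chromatin that was sequenced without immunoprecipitation, from mouse embryonic stem cells (mESCs) of the genotypes IκBα-WT and IκBα-KO. Of the 8 inputs in the series of 38 samples, 6 were read, as 3 KO/WT pairs: the pair of the H3K9me3 experiment, the pair of the H3K27me3 experiment and the pair that the H3K4me1 and H3K27ac experiments shared. The inputs had no list of their own. Their reads were taken from the 24 lists of enriched regions of these 4 marks, where the peak caller epic2 gave an input count for every region, and they were summed per 1 Mb window over the sequence that was called in all 6 lists of a mark. Of 2473 windows on chromosomes 1 to 19, 1248 held at least 20 kb of such sequence in the H3K27me3 pair and 1789 in the shared pair (H3K4me1 lists). In the H3K9me3 pair 80 windows inside and 1547 outside the altered stretches of chromosomes 2, 8 and 12 did so, and 773 windows were measured in all 3 pairs.

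All cells were ES-E14TG2a, a male mESC line, kept in serum with LIF and sampled at 0 h, before differentiation. KO cells had been edited with 2 guide RNAs in exon 1 of Nfkbia, the gene of IκBα, and were grown from sorted single cells, whereas WT clones had received a scrambled guide. The ChIP data came from 3 independent clones per genotype and mark, but which of them gave the inputs is not stated in the sources used here, and each experiment had 1 WT and 1 KO input. The start sites of Pou5f1, Sox2 and Nanog, which encode core pluripotency factors, lay in a called H3K27ac region in 6 of 6 lists each.

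Input reads come from the whole genome with little preference, so that their density along a chromosome follows the number of DNA copies, apart from effects of base composition, mappability and open chromatin. Embryonic stem cells in culture are known to gain and lose chromosomes or parts of them, and gains of chromosome 8 are among the best known in mouse lines. Taking 2 copies as the base, 3 copies give a log2 ratio of 0.58 and 1 copy gives −1. Reads of cells with different copy numbers are averaged in a bulk input, so that a lower level in all cells and a full change in some cells cannot be told apart.

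The 2 guides are shown because they define the KO genotype. Their sites were found in GRCm38 from the guide oligonucleotides, and are printed with the protospacer in lower case and the PAM in capitals:
Nfkbia gRNA 1: gtggacgatcgccacgacagCGG
Nfkbia gRNA 2: ccttcttgaggccatcccgcGGG
The first lies on the minus strand (chr12:55492432-55492451) and the second on the plus strand (chr12:55492460-55492479), both in exon 1 of transcript Nfkbia-201, and their starts are 28 bp apart. The altered stretch of the same chromosome starts 47.5 Mb further along, and whether the edit and the stretch are linked was not tested. Input over the gene alone (chr12:55489410-55492647) was not measured, since the called regions that hold it are longer. H3K4me1 regions of 13.2 to 64.2 kb over Nfkbia held 33.6, 33.6 and 35.0 KO input reads per kb in the 3 KO lists and 33.0, 33.2 and 33.3 WT input reads per kb in the 3 WT lists. In its 1 Mb window the log2 KO/WT input was 0.05 in the shared pair and −0.15 in the H3K27me3 pair, and the H3K9me3 pair had too little called sequence there.

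Each pair was first checked for being a single pair of libraries. Among 46783 regions with identical coordinates in 2 lists of the same genotype and mark, 92.8% had the same input count and the largest difference was 3 reads, so the 3 lists of a genotype repeat a single input and are not replicates. The measured windows held 2057308 WT and 2137022 KO input reads in the H3K9me3 pair, 1959552 and 2239690 in the H3K27me3 pair, and 10828407 and 10668862 in the shared pair. The median counting error of a window was 0.07, 0.06 and 0.03 on the log2 scale in this order. The robust SD of log2 KO/WT over the windows was 0.12, 0.05 and 0.04, which is near the counting error in the last 2 pairs and above it in the H3K9me3 pair. Outside chromosomes 2, 8 and 12, log2 KO/WT of the H3K9me3 pair moved with the GC content of the called sequence (Pearson r = 0.69 over 1351 windows that share both libraries), against r = 0.05 over 1014 windows in the H3K27me3 pair and r = −0.12 over 1479 windows in the shared pair. The spread of the H3K9me3 pair over the same windows fell from 0.11 to 0.07 once a running median over GC content was removed. Reads without molecular identifiers are not independent molecules, so intervals below cover counting error only.

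Chromosome X, present in 1 copy in male cells, served as a scale. Its median level against the autosomal median of the same input was −0.83 in WT and −0.80 in KO in the shared pair, −0.94 and −0.91 in the H3K27me3 pair, and −0.85 and −0.86 in the H3K9me3 pair. With the autosomal median set to 2 copies these levels correspond to between 1.04 and 1.15 copies in the 6 inputs. KO/WT on X was −0.02, 0.03 and 0.02 in the H3K9me3, H3K27me3 and shared pair.

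**Figure D1:**
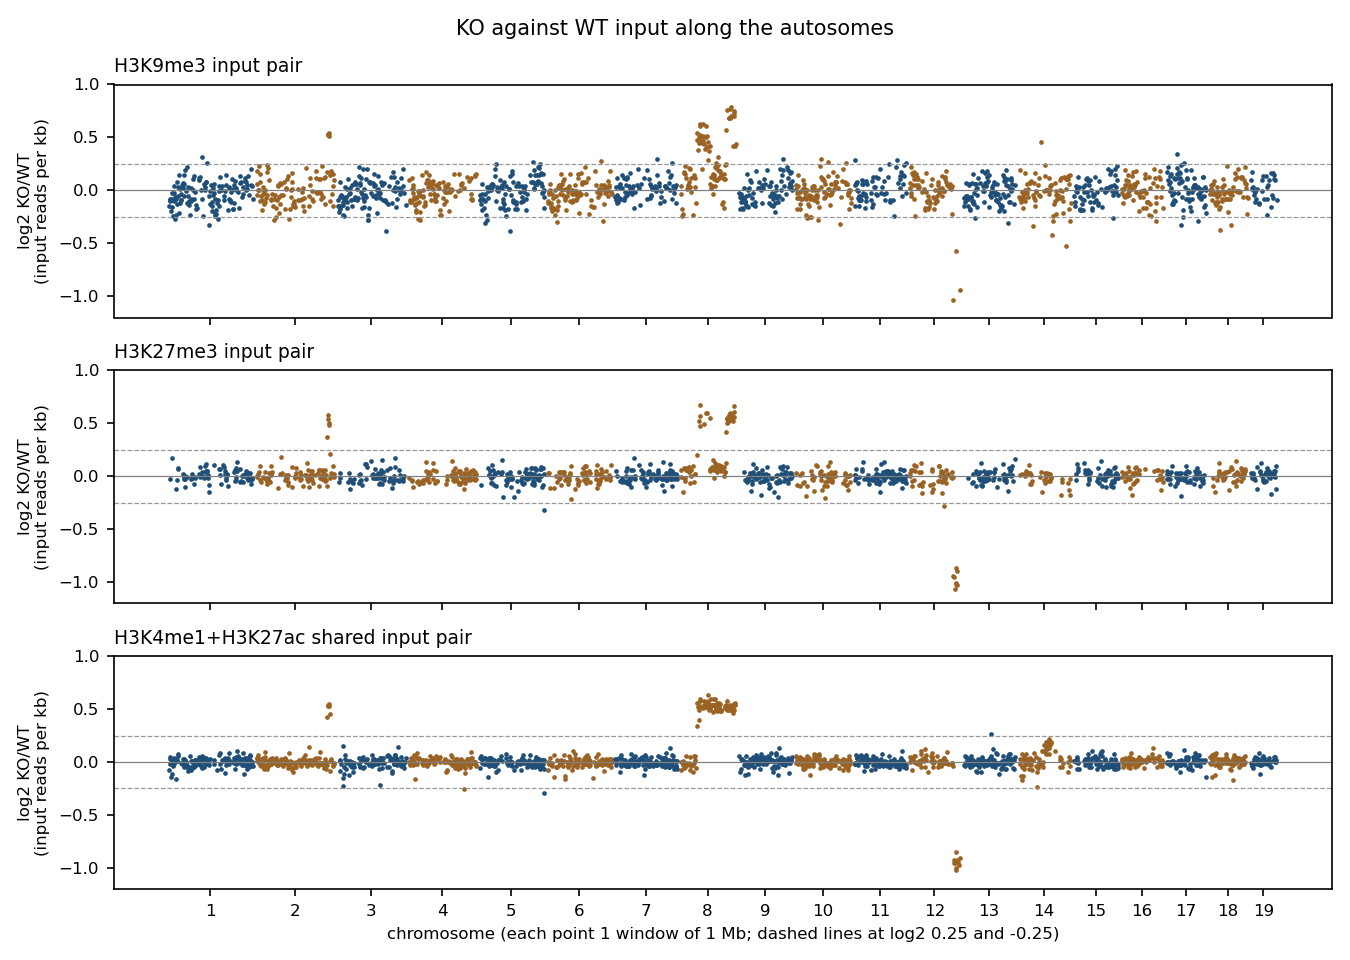
Log2 KO/WT of input reads per kb (y axis) for every measured 1 Mb window in chromosome order (x axis), in the 3 input pairs, with colours alternating by chromosome. Points leave the dashed lines at log2 0.25 and −0.25 in groups on chromosomes 2, 8 and 12 in all 3 pairs, and the H3K9me3 pair is the widest elsewhere.

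The first question was whether any whole autosome differed between KO and WT in all 3 pairs. None did by the threshold used, a median window beyond log2 0.1 in the same direction in each pair. Chromosome 8 came closest, with median windows of 0.20 in the H3K9me3 pair, 0.09 in the H3K27me3 pair and 0.51 in the shared pair (0.27 ± 0.21, SD, n = 3 pairs). With 3 pairs an exact sign-flip permutation test, two-sided, cannot go below p = 0.25, which was reached by chromosome 8 and, with means between −0.02 and 0.01, also by chromosomes 3, 4, 6, 10 and 19. With 500 kb windows, chromosome 8 passed in all 3 pairs.

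Beyond chromosomes 2, 8 and 12, all 16 autosomes stood at the WT level as far as their median window showed. Their KO/WT lay between −0.03 (chromosome 3) and 0.02 (chromosome 7) in the H3K9me3 pair, between −0.02 (chromosome 4) and 0.02 (chromosome 18) in the H3K27me3 pair, and between −0.01 (chromosome 15) and 0.02 (chromosome 14) in the shared pair. The value farthest from 0 among the means of 3 pairs was −0.02, on chromosome 3. Had it been upward, an extra copy of the chromosome in 2.43% of KO cells would give a shift of this size. The sign of the median was the same in the 3 pairs on 5 of these 16 autosomes. The median windows of chromosomes 2 and 12 were also near 0, at −0.01 ± 0.01 and −0.00 ± 0.01 (SD, n = 3 pairs), but a median does not see a stretch that covers a small part of a chromosome. Over the summed reads the mean was 0.04 on chromosome 2 and −0.05 on chromosome 12, where the pairs stood at 0.04 (H3K9me3), −0.12 (H3K27me3) and −0.07 (shared).

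**Figure D2:**
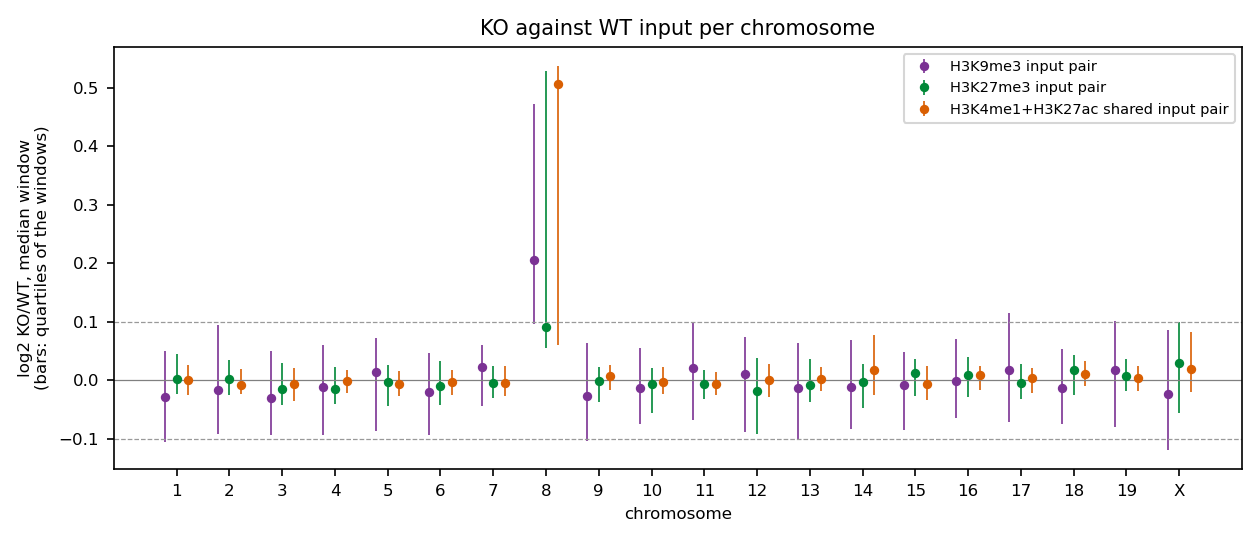
Median log2 KO/WT of the 1 Mb windows of each chromosome (points) with the quartiles of its windows (bars), for the 3 input pairs, with dashed lines at 0.1 and −0.1. Chromosome 8 stands above the rest, at 0.20, 0.09 and 0.51, and its quartiles are the farthest apart.

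Window by window, the H3K9me3 pair had 64 windows raised past log2 0.25 (3.93%) and 38 lowered (2.34%), the H3K27me3 pair 33 raised (2.64% of 1248) and 10 lowered (0.801%), and the shared pair 76 raised (4.25% of 1789) and 13 lowered (0.727%). The limits of the stretches described below came from KO/WT of the shared pair and, on chromosome 12, also of the H3K27me3 pair. The counts of the shared pair inside and outside them were thus largely set in advance and are no separate support. In the shared pair, all 86 windows within these stretches of chromosomes 2, 8 and 12 were past the fold. Outside them 3 of 1703 windows were. In the H3K27me3 pair these were 41 of 73 and 2 of 1175. In the H3K9me3 pair they were 49 of 80 and 53 of 1547. Outside the 3 chromosomes 50 of its windows were past the fold, against 19 with the GC correction. Over the 773 windows that all 3 pairs measured, 24 were raised and 1 was lowered past the fold in every pair, and none of these lay outside chromosomes 2, 8 and 12. Over the 630 of these windows outside the 3 chromosomes, log2 KO/WT correlated between pairs with r = 0.09 (H3K9me3 and H3K27me3), 0.04 (H3K9me3 and shared) and 0.17 (H3K27me3 and shared), given as a description, since the windows of a pair share its libraries.

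With the 3 pairs as replicates and the experiment as a block, edgeR's quasi-likelihood test called 25 windows raised (3.23% of 773) and 2 lowered (0.259%) in KO at a Benjamini-Hochberg adjusted p under 0.05. The raised windows were 4 of 4 tested in the chromosome 2 stretch, 8 of 8 in the left part and 13 of 13 in the right part of the chromosome 8 stretch, with log2 changes between 0.31 and 0.59 and adjusted p of at most 0.00048. Of 24 tested windows in the middle part of chromosome 8, with a median of 0.24, none was called. The stretches and parts were cut from the counts of these same inputs. The tallies by part therefore describe the parts and are no separate support for them. The lowered windows were the only tested window of the chromosome 12 stretch, at −0.84, and a window of chromosome 5, at −0.30. Among the 630 tested windows outside chromosomes 2, 8 and 12, the chromosome 5 window was the only call. The p-values measure the spread between 3 pairs of inputs, which may be technical.

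On chromosome 2, KO input was raised over a stretch of 6 Mb (chr2:165000001-171000000) in all 3 pairs. In reads per kb of called sequence, the KO input stood at 42.5 against 30.9 in WT in the shared pair, at 27.2 against 17.5 in the H3K27me3 pair and at 33.0 against 22.1 in the H3K9me3 pair. KO was higher in every pair, and after centring on the median window log2 KO/WT was 0.53, 0.49 and 0.52 (mean 0.51 ± 0.02, SD, n = 3 pairs). The WT input lay at its own median there in the first 2 pairs, at −0.01 and 0.01, and the KO level corresponded to 2.84 copies in the shared pair and 2.79 in the H3K27me3 pair. In the H3K9me3 pair WT stood at 0.18 and KO at 0.71, which corresponds to 2.27 and 3.26 copies. In 100 kb windows the step up was placed at 165.2 Mb and the step down at 170.4 Mb in both of these pairs. The H3K9me3 pair measured 4 windows in the stretch and its value there was 0.37 with the GC correction, where it no longer made a run of 5 windows. The stretch holds 54 protein-coding genes, among them Sall4, which encodes a zinc finger factor of the pluripotency network. The window of Sall4 (chr2:168748332-168767943) had a log2 KO/WT input of 0.52, 0.50 and 0.53 in the H3K9me3, H3K27me3 and shared pair.

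On chromosome 8, KO input was raised from about 40 Mb to the end of the chromosome in all 3 experiments, but the WT input was not at the same level in all of them. The description therefore takes 3 parts: a left part (chr8:40000001-70000000), a middle part (chr8:70000001-107000000) and a right part (chr8:107000001-129401213). The parts were set after the values were seen, from the run of windows in which the WT input of the H3K27me3 experiment exceeded the WT input of the shared experiment over sequence called for both.

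In the shared pair the 3 parts had like values. Log2 KO/WT was 0.53 in the left, 0.52 in the middle and 0.52 in the right part, over 19, 28 and 22 windows, with a lowest window of 0.34 and a highest of 0.64. The WT input was at −0.01, 0.01 and −0.03 against its own median, and KO at 0.52, 0.52 and 0.48, which corresponds to 2.87, 2.86 and 2.79 copies. The H3K27ac lists, which count the same inputs over other sequence, gave 0.54, 0.51 and 0.51.

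In the H3K27me3 pair the outer parts were at the same height but the middle part was not. Log2 KO/WT was 0.55 over 9 windows of the left part, 0.08 over 30 windows of the middle part and 0.55 over 20 windows of the right part. The 95% counting interval of the summed reads was 0.49 to 0.57 in the left, 0.06 to 0.09 in the middle and 0.53 to 0.57 in the right part. The KO input was level throughout, at 0.53, 0.50 and 0.50. It was the WT input that changed, from −0.06 in the left part to 0.44 in the middle part and back to −0.04 in the right part, in reads per kb from 16.8 to 23.7 and 17.2. The middle part of this WT input thus corresponded to 2.72 copies, against 2.83 in the KO input.

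In the H3K9me3 pair KO/WT was likewise lowest in the middle part, where WT was highest, but the KO input was not level. Log2 KO/WT was 0.47 over 25 windows of the left part, 0.13 over 33 windows of the middle part and 0.69 over 15 windows of the right part. The WT input stood at −0.05, 0.44 and 0.07, while the KO input stood at 0.38, 0.54 and 0.76. Within the middle part a run of 9 windows (chr8:85000001-94000000) was at 0.19. After the GC correction KO/WT of the 3 parts was 0.52, 0.12 and 0.59, and this run was not found.

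Inputs of a genotype were then set against each other between experiments over sequence called for both. In WT, the H3K27me3 input over the shared input rose beyond log2 0.15 in a single run of the genome, at chr8:70000001-107000000, with a median of 0.47 over 21 windows, of 1008 windows compared. The limits of the middle part were taken from this run. Its match with that part was thus set in advance and is no separate support. In KO the same comparison over the same 1008 windows gave no run, and the median of the middle part was 0.01. Between the H3K9me3 and the shared input only 93 windows could be compared. Their WT ratio in the middle part was 0.47 and their KO ratio −0.07, from 5 windows. In WT this comparison gave a run at 0.32 over 7 windows (chr8:48000001-119000000), which reached past both ends of the middle part. The left and right part had 1 window each, at 0.16 and −0.17 in WT. The same comparison gave a run on chromosome 5 in both genotypes, at 0.15 over 6 windows in WT (chr5:137000001-149000000) and at 0.37 over 8 windows in KO (chr5:134000001-149000000). With 1 input per genotype and experiment, these differences between experiments have no replicate check beyond the counting error.

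In 100 kb windows the raised KO input of chromosome 8 began at 40.6 Mb in the shared pair and between 39.6 and 40.6 Mb in the H3K9me3 pair. The middle part began between 69.9 and 70.0 Mb and ended between 106.6 and 106.8 Mb in the H3K27me3 pair, and between 69.8 and 71.0 Mb and between 106.7 and 107.6 Mb in the H3K9me3 pair. The part of chromosome 8 before the stretch stood at 0.05, 0.03 and −0.02 in the H3K9me3, H3K27me3 and shared pair.

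**Figure D3:**
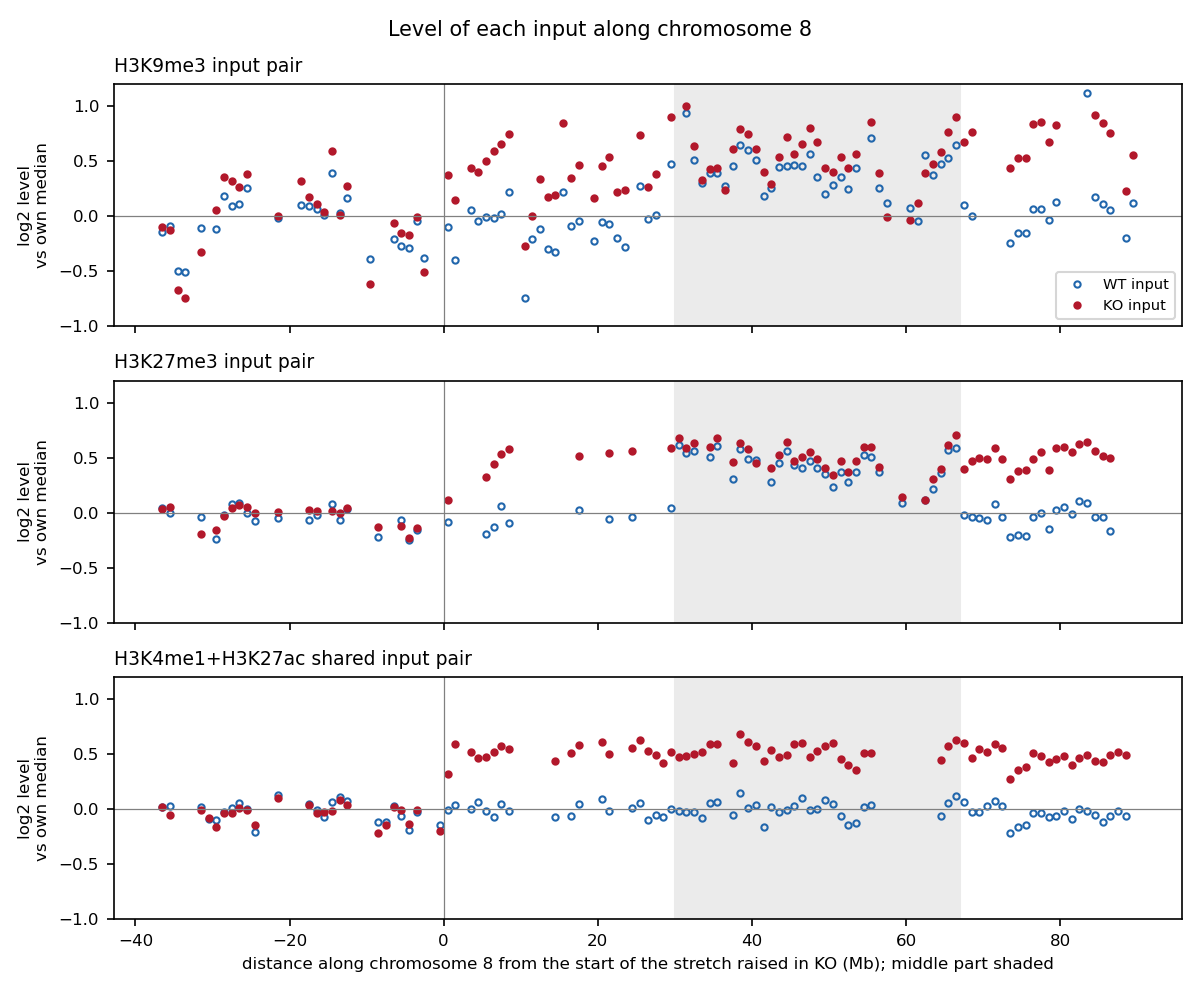
Level of the WT input (open circles) and the KO input (filled circles) along chromosome 8, as log2 of reads per kb against the input's own autosomal median, by distance from the start of the raised stretch, in the 3 experiments, with the middle part shaded. KO is raised across the stretch in each panel, whereas WT is raised in the shaded part in the upper 2 panels and not in the lowest, and 5 points above 1.2 lie outside the axis.

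The whole chromosome 8 stretch holds 766 protein-coding genes, 3.68% of the 20807 on the autosomes, of which 411 are in the middle part. Zfp42, which encodes the pluripotency marker REX1, is in the left part (chr8:43295063-43306980), and its window stood at 0.38 in the H3K9me3 pair and 0.52 in the shared pair. Klf2, which encodes a transcription factor of naive pluripotency, is in the middle part (chr8:72319033-72321656), and its window stood at 0.13, 0.07 and 0.52 in the H3K9me3, H3K27me3 and shared pair (0.24 ± 0.25, SD, n = 3 pairs). The SD of the 3 pairs was 0.25 at Klf2, against 0.02 at Sall4 on chromosome 2.

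On chromosome 12, KO input was lowered in every measured window from 103 Mb on (chr12:103000001-120129022) in all 3 pairs. The measured windows spanned chr12:103000001-113000000 in the H3K27me3 pair and chr12:104000001-119000000 in the shared pair, and the H3K9me3 pair measured 3 windows with 76.2 kb of called sequence, too few for a run of 5. KO against WT input reads per kb were 15.6 against 31.4 in the shared pair, 10.4 against 17.9 in the H3K27me3 pair and 11.0 against 18.3 in the H3K9me3 pair. The median log2 KO/WT was −0.95 over 11 windows, −0.98 over 8 windows and −0.94 over 3 windows. The mean of these medians was −0.96 ± 0.02 (SD, n = 3 pairs). Over the summed reads the shared pair stood at −0.96 and the H3K27me3 pair at −0.95. The H3K9me3 pair was less lowered by this measure, at −0.79, with a counting interval of −0.91 to −0.66. Its 3 windows ran from −1.04 to −0.57, so the small SD of the medians overstates how close the pairs were. All 22 windows of the 3 pairs lay beyond −0.25. By the median window, the KO level corresponded to 1.04 copies in the shared pair, 1.04 in the H3K27me3 pair and 0.94 in the H3K9me3 pair. These copies were close to the values of X. The step was placed between 102.8 and 103.4 Mb in the shared pair and between 102.6 and 103.2 Mb in the H3K27me3 pair, and the chromosome before it stood between −0.00 and 0.01 in the 3 pairs.

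The stretch holds 149 protein-coding genes. Tcl1, which encodes a co-activator of AKT that is high in mESCs, had a log2 KO/WT input of −0.95 in the H3K27me3 pair and −0.95 in the shared pair. All 6 genes of the imprinted Dlk1-Dio3 domain that were looked at lie there. The window of Dlk1, Meg3, Rtl1, Rian and Mirg, a paternally expressed gene, the maternally expressed RNAs and the retrotransposon-derived Rtl1 between them, stood at −0.57, −0.87 and −0.85 in the H3K9me3, H3K27me3 and shared pair. Dio3, at the far end of the domain, lay in a window at −1.02 in the H3K27me3 pair, with a mean of −1.01 ± 0.01 (SD, n = 2) over this and the shared pair.

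On chromosome 14 there was a stretch that both genotypes shared. From 45 to 62 Mb (chr14:45000001-62000000) the WT input of the shared pair stood at −0.88 and the KO input at −0.89 against their own medians over 14 windows, so that KO/WT was −0.02. In the H3K27me3 pair the 3 windows measured were at −0.82 in WT and −0.86 in KO, and in the H3K9me3 pair 6 windows were at −0.72 and −0.69. In copies this is 1.09 in WT and 1.08 in KO in the shared pair, next to 1.13 and 1.15 for X. The steps lay at 45.4 Mb and between 62.8 and 63.0 Mb in both genotypes. A ratio of KO to WT does not show this stretch, which holds 269 protein-coding genes. Bmp4, a signalling ligand, and Otx2, a transcription factor of the exit from naive pluripotency, are among them and were picked after the values were seen. The window of Otx2 stood at −0.80 in WT and −0.85 in KO in the shared pair, and that of Bmp4 at −0.73 and −0.97. Runs beyond log2 0.3 of the input's own median were more frequent in the H3K9me3 pair, with 8 in WT and 17 in KO. Those found in both genotypes included chr12:17000001-23000000, at 0.43 in WT and 0.51 in KO, and others on chromosomes 15 and 17. The other pairs had no such run at these places.

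Further along chromosome 14, the shared pair alone had a run of 8 windows above 0.15 (chr14:72000001-80000000), at 0.18. Here the WT input was low, at −0.12, and the KO input was at 0.04. The H3K27me3 pair had −0.01 over 6 windows and the H3K9me3 pair 0.04 over 7 windows of this stretch. With the GC correction the shared pair stood at 0.17 and the H3K4me1 lists gave no run. The same inputs through the H3K27ac lists gave a run at 0.18 over 11 windows (chr14:66000001-80000000), and with the GC correction a run at 0.18 over 10 windows (chr14:66000001-79000000). The 3 KO libraries of H3K4me1 stood at 0.10, 0.11 and 0.09 against the WT mean over the 8 windows. Those of H3K27ac were less uniform, at 0.10, 0.10 and 0.03 over 7 windows, with WT libraries at −0.03, 0.03 and 0.00. Of the 8 windows, edgeR called 5 raised in H3K4me1, against 20.0% of all windows of that mark. In H3K27ac it called 3 of 7 raised, against 27.6%. It called 0 of 6 in H3K27me3 and 0 of 7 in H3K9me3, where KO minus WT was −0.05 and −0.01. The H3K9me3 pair alone had runs on chromosomes 5 and 6, at 0.15 and −0.18 over 5 windows each, and neither was left after the GC correction.

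On chromosome 5, a short block stood out in the opposite sense, with WT above KO. The 1 Mb window from 149 to 150 Mb was at −0.17, −0.32 and −0.30 in the H3K9me3, H3K27me3 and shared pair (adjusted p = 0.00016, edgeR). After this window was seen, the autosomes were scanned in 100 kb windows for runs of at least 3 with a running median beyond log2 0.3. Outside the 3 large stretches the scan found 1 run in the H3K27me3 pair, 2 in the shared pair and 31 in the H3K9me3 pair. The block at chr5:149100001-149400000 was the run found in both the H3K27me3 and the shared pair.

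Over this block the WT input held 45.3 reads per kb against 29.8 in KO in the shared pair, 24.9 against 18.7 in the H3K27me3 pair. In the H3K9me3 pair it held 679 reads against 551 in KO over the 20.4 kb measured. WT was higher in each, and log2 KO/WT was −0.56, −0.59 and −0.35, with 95% counting intervals of −0.62 to −0.50, −0.70 to −0.48 and −0.51 to −0.19. The level of the KO input was −0.02 in the shared pair and −0.06 in the H3K27me3 pair, near its median, and that of the WT input was 0.54 and 0.53, which corresponds to 2.91 and 2.88 copies. In the H3K9me3 pair, from 2 windows of 100 kb, both were above the median, with KO at 0.41 and WT at 0.76, which corresponds to 2.67 and 3.39 copies. Out to 1 Mb on either side, the median KO/WT was −0.00 in the shared pair, 0.07 in the H3K27me3 pair and 0.12 in the H3K9me3 pair. These medians leave out the adjacent 100 kb window on each side. The window just before the block stood at −0.26 in the shared and −0.21 in the H3K27me3 pair. The window just after it stood at −0.08 and −0.12. Over its 300 kb the block touches 3 protein-coding genes. They are Hmgb1 (chr5:149046702-149184489), which encodes an abundant chromatin protein and alarmin, Uspl1 (chr5:149184350-149215434), which encodes a SUMO isopeptidase, and Alox5ap (chr5:149264767-149288153), which encodes the activating protein of 5-lipoxygenase.

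**Figure D4:**
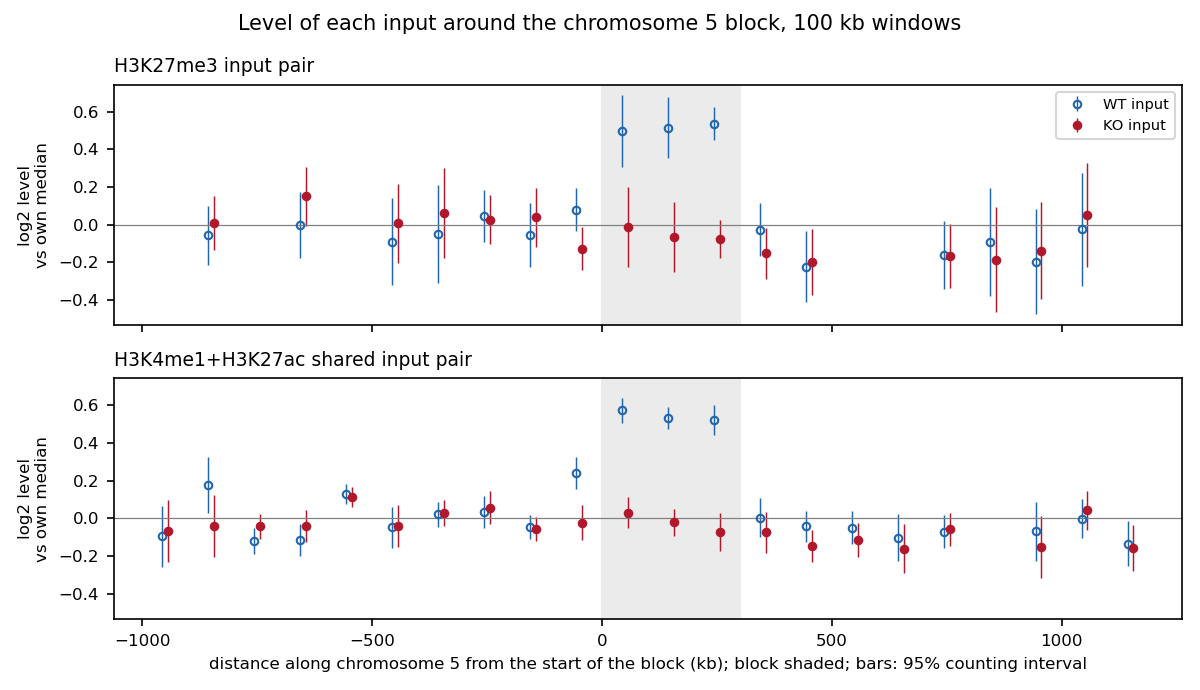
Level of the WT input (open circles) and the KO input (filled circles) in 100 kb windows around the chromosome 5 block (shaded), as log2 of reads per kb against the input's own autosomal median, with 95% counting intervals, in the H3K27me3 and the shared pair. In the shaded 300 kb WT is raised, at 0.53 and 0.54 over the block, and KO is at −0.06 and −0.02.

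The ChIP libraries of the same experiments carry 3 clones per genotype and were read over the same windows, as log2 reads against the mean of the 3 WT libraries of the mark. None of the 24 libraries had a run of at least 5 windows beyond 0.15 against the other 2 of its genotype and mark. This check does not see shorter or smaller differences of a library from its group. H3K9me3 had 4 windows in the chromosome 2 stretch and 3 in the chromosome 12 stretch, too few for a run of 5 within them. In the chromosome 2 stretch the 3 KO libraries of H3K4me1 were at 0.40, 0.37 and 0.39, those of H3K27ac at 0.38, 0.36 and 0.41, those of H3K27me3 at 0.29, 0.29 and 0.29, and those of H3K9me3 at 0.10, 0.03 and 0.08. No KO library overlapped with a WT library in any of the 4 marks (exact permutation test of 3 against 3, two-sided, p = 0.1, the smallest it can give).

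In the chromosome 12 stretch the KO libraries of H3K4me1 were at −0.65, −0.67 and −0.67, of H3K27me3 at −0.56, −0.51 and −0.60, of H3K9me3 at −0.47, −0.47 and −0.44, and of H3K27ac at −0.44, −0.34 and −0.40. All of these lay below every WT library (p = 0.1 in each mark, the same exact test). In size they were smaller than the input change of −0.96. In the chromosome 5 block the KO libraries lay between −0.29 and −0.46 in the 4 marks, below all WT libraries, which lay between −0.11 and 0.12.

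The middle part of chromosome 8 again set the experiments apart. There the KO libraries of H3K4me1 were at 0.39, 0.39 and 0.38 and those of H3K27ac at 0.36, 0.38 and 0.36. The KO libraries of H3K27me3 were at 0.06, 0.05 and 0.06, and those of H3K9me3 at 0.01, 0.02 and −0.00, the last of which overlapped with the WT libraries (p = 0.5, exact permutation test). In the right part all 4 marks were raised in KO, with means of 0.41 in H3K4me1, 0.36 in H3K27ac, 0.35 in H3K27me3 and 0.17 in H3K9me3, and in the left part with means of 0.33, 0.23, 0.27 and 0.23. The 3 WT libraries of each mark lay within 0.02 of their mean in the middle part, where KO minus WT was 0.05 in H3K27me3 and 0.01 in H3K9me3, against 0.38 in H3K4me1 and 0.37 in H3K27ac.

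**Figure D5:**
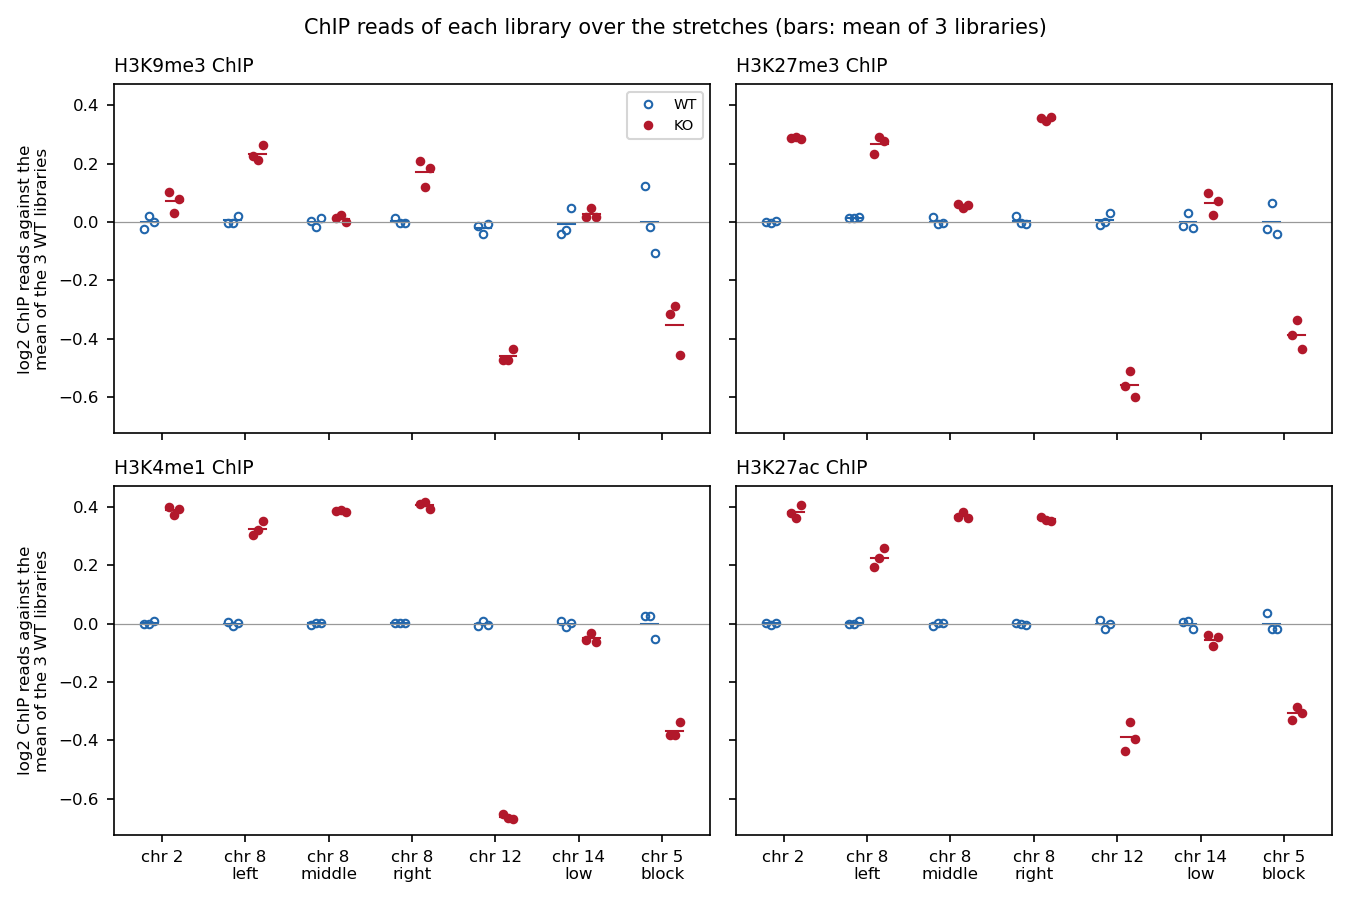
Log2 ChIP reads of each library against the mean of the 3 WT libraries of its mark (y axis), for WT (open circles) and KO (filled circles), in the stretches described in the text (x axis), with bars at the mean of 3 libraries. KO libraries keep together in each stretch. In the middle part of chromosome 8 they are at about 0.39 in H3K4me1 and 0.37 in H3K27ac but at 0.06 in H3K27me3 and 0.01 in H3K9me3.

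Window by window, edgeR called ChIP windows across the genome, so the counts in the stretches are read against these shares. In H3K9me3, 52 windows were raised in KO (3.20% of those tested) and 40 lowered (2.46%). In the left, middle and right part of the chromosome 8 stretch 23 of 25, 1 of 33 and 8 of 15 windows were raised, and 3 of 3 were lowered in the chromosome 12 stretch. In H3K27me3, 88 of 1248 were raised (7.05%) and 83 lowered (6.65%), with 8 of 9, 5 of 30 and 18 of 20 raised on chromosome 8 and 8 of 8 lowered on chromosome 12. In H3K4me1, 357 of 1789 were raised (20.0%) and 340 lowered, together 39.0%, with 18 of 19, 28 of 28 and 22 of 22 raised on chromosome 8 and 11 of 11 lowered on chromosome 12. In H3K27ac, 441 of 1595 were raised (27.6%) and 387 lowered (24.3%), with 17 of 19, 24 of 27 and 19 of 20 raised on chromosome 8 and 7 of 8 lowered on chromosome 12. In the chromosome 2 stretch 1 of 4 windows was raised in H3K9me3, 5 of 6 in H3K27me3, 6 of 6 in H3K4me1 and 6 of 6 in H3K27ac. These fits used no input counts, so that ChIP windows were not corrected for copy number.

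Genes of the study's pathways were placed in this map from lists. Of the 20807 protein-coding genes on the autosomes, the stretches of chromosomes 2, 8 and 12 hold 0.26%, 3.68% and 0.72%. Of 14 naive pluripotency genes, Zfp42, Klf2 and Tcl1 lay in the altered stretches, and of 7 core pluripotency genes Sall4 did. The lists were chosen with earlier results known, and whether they differ from these shares was not tested. For the other genes of these lists the windows lay between −0.05 and 0.18 in the naive and between −0.03 and 0.24 in the core list over the 3 pairs, with the farthest means at Esrrb (0.08 ± 0.09, SD, n = 3 pairs) and Pou5f1 (0.08 ± 0.15). The windows of these 2 factors of the pluripotency network were highest in the H3K9me3 pair, at 0.18 and 0.24. In the shared pair they were at 0.01 and −0.03. With the GC correction the means were 0.03 at Esrrb and 0.03 at Pou5f1.

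None of the 10 PRC2 genes, which encode the complex that places H3K27me3, lay in a stretch. Their windows ranged from −0.18 to 0.35, and the farthest mean was that of Phf1, an accessory subunit (0.10 ± 0.21), with 0.35 in the H3K9me3 pair and −0.01 and −0.04 in the other pairs, and a mean of 0.06 with the GC correction. None of 9 DNA methylation genes lay in a stretch either, with windows between −0.15 and 0.14, and Dnmt1, the maintenance methyltransferase, was farthest at −0.07 ± 0.07. None of 11 NF-κB and IκB genes did, with windows between −0.15 and 0.18, and Nfkb1, which encodes the p50 precursor, was farthest at 0.09 ± 0.07. In lists this short, having no member in a stretch lies near the shares of all genes given above. All 6 Dlk1-Dio3 genes lay in the chromosome 12 stretch.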

How the data were processed

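Epic2 lists of H3K9me3, H3K27me3, H3K4me1 and H3K27ac (3 IκBα-WT and 3 IκBα-KO clones each) were used as deposited: the authors gave ChIP counts and input counts per region. Per the labels and methods, reads were trimmed (Trim Galore 0.6.6), aligned to GRCm38 (Bowtie2 2.4.4; for H3K27ac and H3K9me3 the aligner is not given in the sources used here), filtered for mapping quality, and called with an FDR under 0.05. H3K4me3 lists hold no input counts, and its inputs were not analysed here. Counts were spread evenly over each region, kept where all 6 lists of a mark were called, summed per 1 Mb window (at least 20 kb) and centred on the median autosomal window. Regions were selected on ChIP over input, which could move a ratio where copy number differs. Windows were tested with edgeR 4.0.16 (TMM, Benjamini-Hochberg adjusted p under 0.05), pairs blocked by experiment, and with DESeq2 1.42.0 as an alternative. Both the fits and the search for stretches (5 or more windows, running median of 5 beyond log2 0.15) were tested on simulated data. Genes come from GENCODE M21. The named genes were all list members in a stretch, Nfkbia, and the member with the most extreme mean of each list. Members, lists and thresholds were chosen with earlier results of these data known, and stretch parts and the 100 kb scan after seeing values.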

Additional observations from a re-analysis of the deposited data

How the results depend on the processing

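The share of windows past the fold was 6.27% in the H3K9me3 pair, 3.45% in the H3K27me3 pair and 4.97% in the shared pair. In the H3K9me3 pair it was 11.0% with calls of identical coordinates, 4.07% with at least 50 kb called, 10.8% and 3.95% with windows of 500 kb and 2 Mb, and 21.9% and 2.77% with folds of 0.15 and 0.4. In the H3K27me3 pair it was 1.65% with calls of identical coordinates and 5.61% with a fold of 0.15. In the shared pair all alternatives stayed within 1.5 times. The count of autosomes past the fold in all 3 pairs was 0, and 1 (chromosome 8) with 500 kb windows. The H3K9me3 pair had 6 stretches, against 30 and 2 with a running median beyond 0.1 and 0.25, 17 and 2 with at least 3 and 10 windows, and 2 with the GC correction, which was added after seeing the data. With at least 10 windows the H3K27me3 pair kept 1 of 4 stretches and the shared pair 2 of 4. The input fit made 27 calls, against 68 with no minimum of called sequence, 45 with H3K27ac lists for the shared pair, and between 27 and 31 with a pair left out. For single autosomes 37 of 285 recomputed values moved by more than the SD of the 3 pairs, and for named genes 23 of 217. No named gene with a mean past the fold changed sign.

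The experiment term is the pairing of the inputs. With no replicate block, called length standing in for the experiment, the input fit made 0 calls, and 0 windows had an unadjusted p under 0.05. DESeq2 with the block made 32. For the ChIP fits the replicate number as a block gave 88 calls in H3K9me3 (92 without), 148 in H3K27me3 (171), 706 in H3K4me1 (697) and 824 in H3K27ac (828). The deviations of same-numbered WT and KO libraries correlated with at most r = 0.09, so the samples share only a number. Leaving out WT replicate 2 gave 53 calls in H3K9me3, the lowest of a range of 53 to 78. The other ranges were 116 to 193 in H3K27me3, 561 to 624 in H3K4me1 and 735 to 772 in H3K27ac. The median counting error of a window, 0.07 in the H3K9me3, 0.06 in the H3K27me3 and 0.03 in the shared pair, limits what a single window can show, and the H3K9me3 pair had little called sequence on chromosome 12, with 3 windows in the stretch.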

Other observations

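In the 100 kb scan the shared pair had 1 further run, lowered at −0.32 over 3 windows (chr4:128600001-128900000). The H3K27me3 pair stood at −0.19 over the same windows and the H3K9me3 pair at 0.17 in 1 window. Of the windows past log2 0.25 outside the stretches in the 1 Mb analysis, the shared pair had a lowered window on chromosome 4 from 128 to 129 Mb (−0.26), the chromosome 5 window and a raised window on chromosome 13 from 65 to 66 Mb (0.26). The H3K27me3 pair had the chromosome 5 window and a lowered window on chromosome 12 from 82 to 83 Mb (−0.28, from 368 WT and 341 KO reads).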
